A study of Mus musculus with 2 samples.

Results

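Chemokines are small secreted proteins that draw leukocytes along a gradient, and 8 of their genes were followed here in innate lymphoid cells (ILCs) of the mouse gut: Ccl1, Ccl3, Ccl4, Ccl5, Xcl1, Cxcl2, Cxcl10 and Cx3cl1. They are 8 of the 17238 genes in the table of cells that the authors deposited. Their levels were compared between the small intestine and the colon, and between cells with and without at least 1 unique molecular identifier (UMI, 1 counted RNA molecule) of Ccr6, Ncr1, Gata3, Klrd1 or Cd3e. Cells sorted as IL7ra+ ILC came from fed C57BL/6 mice aged 8 weeks. The small intestine and the colon each gave 1 droplet library (3′ end counting) made from a pool of 8 mice, and the labels name no altered gene and no agent for either. The authors listed 5490 cells of the small intestine, with a median of 2579 UMIs and 1201 genes, and 7549 cells of the colon, with a median of 2600 UMIs and 1075 genes. With 1 library per tissue there is no replicate, so no test was made and no p-value is given. Every interval is a 95% interval that covers counting error only, not the spread between mice or the extra spread between cells.

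ILCs lack the rearranged antigen receptors of T cells and answer cytokines within hours, and chemokines are part of that answer. CCL3, CCL4 and CCL5 draw T cells, natural killer (NK) cells and monocytes. XCL1 binds XCR1 on cross-presenting dendritic cells, and these chemokines are typical products of NK cells and cytotoxic T cells. CCL1 binds CCR8, CXCL2 draws neutrophils through CXCR2, CXCL10 binds CXCR3 and is induced by interferons, and CX3CL1 (fractalkine) is made as a membrane protein that binds CX3CR1. Several chemokine genes are known targets of the transcription factor NF-kB, which inflammatory signals switch on, and Cxcl10 is also a known target of the interferon response.

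Promoter sequences from RefSeq (build GRCm38.p6, 250 bases before to 50 after the start site, printed 5′ to 3′ on the strand of the gene) matched 6 of the 8 genes, and those of Ccl4 and Ccl5 were not used here. Of these 6 promoters, 3 held the NF-kB motif (GGGA, any 4 bases, CC) on either strand, those of Ccl1, Cxcl2 and Cxcl10, and they are shown as the promoters with that motif. The Ccl1 promoter is at chr11:82179763-82180062 (minus strand), that of Cxcl2 at chr5:90903649-90903948 (plus strand) and that of Cxcl10 at chr5:92348840-92349139 (minus strand). On mm10 the other genes lie at chr11:83647844-83649355 (Ccl3), chr11:83662584-83664683 (Ccl4) and chr11:83525778-83530518 (Ccl5), within 1 cluster of chemokine genes, and at chr1:164931644-164935527 (Xcl1) and chr8:94772009-94782427 (Cx3cl1). Capitals mark every match of the 6 motifs searched on both strands.
Ccl1: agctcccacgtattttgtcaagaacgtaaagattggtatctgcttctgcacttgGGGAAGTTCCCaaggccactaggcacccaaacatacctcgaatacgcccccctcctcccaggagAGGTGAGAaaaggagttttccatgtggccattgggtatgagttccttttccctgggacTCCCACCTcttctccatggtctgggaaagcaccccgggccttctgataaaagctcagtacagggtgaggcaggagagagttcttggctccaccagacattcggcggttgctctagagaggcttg
Cxcl2: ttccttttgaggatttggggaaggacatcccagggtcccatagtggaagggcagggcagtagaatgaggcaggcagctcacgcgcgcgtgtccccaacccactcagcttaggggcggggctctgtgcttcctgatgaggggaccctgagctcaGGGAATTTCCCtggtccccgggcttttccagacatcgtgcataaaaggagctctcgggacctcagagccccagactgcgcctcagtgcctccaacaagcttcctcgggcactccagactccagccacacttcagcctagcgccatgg
Cxcl10: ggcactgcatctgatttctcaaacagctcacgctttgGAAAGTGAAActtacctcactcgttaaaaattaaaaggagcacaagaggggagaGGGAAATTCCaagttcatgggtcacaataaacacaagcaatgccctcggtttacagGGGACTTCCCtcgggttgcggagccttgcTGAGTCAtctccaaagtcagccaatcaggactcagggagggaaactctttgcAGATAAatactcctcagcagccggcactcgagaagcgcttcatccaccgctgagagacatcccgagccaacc
In Ccl1 and Cxcl2 the capitals that begin with GGGAA are 2 overlapping matches of the NF-kB motif on opposite strands, and Cxcl10 had 2 separate matches. Cxcl10 also held the interferon-response motif (GAAA, any 2 bases, GAAA), the AP-1 motif TGANTCA and the GATA motif AGATAA, and Ccl1 held 2 matches of the T-box motif AGGTGNGA. The Ccl3 promoter held only the ROR motif AGGTCA, and none of the 6 motifs was found in those of Xcl1 and Cx3cl1. Of all 32851 promoters of this length, 20.7% held the NF-kB motif, 3.44% the interferon-response motif, 7.81% AP-1, 11.2% GATA, 16.3% ROR and 5.43% T-box. A match describes the letters only.

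The marker groups overlap and differ in size between the tissues. Ccr6, a receptor of lymphoid tissue inducer-like ILC3, was seen in 541 small intestine cells and 357 colon cells, and Ncr1, the receptor NKp46 of NCR+ ILC3, ILC1 and NK cells, in 1605 and 665. Gata3, the ILC2 regulator that other ILCs and T cells also carry, was seen in 1643 small intestine cells and 4218 colon cells. Klrd1, the CD94 subunit of NK receptors, was seen in 172 and 482, and Cd3e, a chain of the T cell receptor complex, in 429 and 1384. None of the 5 markers was seen in 1882 small intestine cells and 1615 colon cells. A share of 82.0% of the Klrd1+ cells of the small intestine and 75.1% of those of the colon carried another marker as well, and so did 30.3% and 50.1% of the Ccr6+ cells. Barcodes shared by both libraries numbered 60, against 56.2 expected by chance.

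Defining genes of each group were seen in it, but not always at their highest level. Il22, the main cytokine of ILC3, was at 7430 CPM (UMIs of the gene per 1000000 UMIs of the cells) in Ccr6+ cells of the small intestine and 6851 CPM in those of the colon, and in Ncr1+ cells at 3939 and 2835 CPM. Markers of NCR+ ILC3, summed over 4 genes with Ncr1 among them, were at 4873 CPM in Ncr1+ cells of the small intestine. Small intestine cells with none of the 5 markers had more, 5784 CPM. Gata3+ cells of the small intestine had Il13 at 43.8 CPM and those of the colon at 62.2 CPM, and Il5 at 58.4 and 233.7 CPM. The Gata3+ group of the small intestine also held 2454 CPM of Il22, against 1044 CPM in that of the colon. Klrd1+ cells of the small intestine had 4090 CPM of ILC1 and NK markers summed over 8 genes, Klrd1 among them, and those of the colon 1824 CPM, but Eomes, which defines NK cells, was at only 4.26 and 6.37 CPM. The granzyme Gzma made much of this gap, with 1931 CPM in Klrd1+ cells of the small intestine against 9.55 CPM in those of the colon. Cd3e+ cells of the small intestine carried Cd3d at 560.0 CPM and those of the colon at 481 CPM, and Trdc, the constant chain of the γδ T cell receptor, at 1481 and 1456 CPM, so both sorted libraries held cells with T cell transcripts. Of 8 myeloid markers, Csf1r of macrophages and Clec9a of dendritic cells were at 0 in both libraries, and the list summed to 1070 CPM for the small intestine and 364 CPM for the colon. Fcer1g, a signalling chain that NK cells also carry, made up 16108 of those 16142 UMIs for the small intestine and 8034 of 8127 for the colon, and the other 5 had 1 to 20 and 1 to 35 UMIs each.

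Over all cells, Ccl3 and Ccl4 were higher in small intestine cells and Ccl1 was higher in the colon. Ccl3 was at 45.1 CPM in small intestine cells and 9.67 CPM in colon cells (4.66-fold, interval 3.99 to 5.46). Ccl4 was at 192.5 CPM in small intestine cells and 53.8 CPM in colon cells (3.58-fold, 3.34 to 3.83). Ccl1 was at 88.2 CPM in small intestine cells and 282 CPM in colon cells (ratio 0.313, 0.295 to 0.332). Thus 2 of the 8 chemokines were higher by 2-fold or more in small intestine cells and 1 was at least 2-fold lower, where 8.92% of the 11962 genes with at least 20 UMIs were higher and 5.42% lower by that much.

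The other 5 chemokines differed by less than 2-fold over all cells. Ccl5 was at 296 CPM in small intestine cells and 382 CPM in colon cells (ratio 0.776), Xcl1 at 191 and 267 CPM (0.716), and Cxcl10 at 58.8 and 74.4 CPM (0.791). Cxcl2 was at 387 CPM in small intestine cells and 329 CPM in colon cells (1.18-fold, 1.14 to 1.22), and Cx3cl1 at 51.8 and 47.1 CPM (1.10-fold, 1.002 to 1.21). The median gene had a log2 ratio of 0.20 in favour of the small intestine, and scaling by that median put Cxcl2 at 1.02-fold and turned Cx3cl1 to a ratio of 0.955, so the direction of Cx3cl1 depends on the scaling. Cells with any T cell UMI, of Cd3d, Cd3e, Cd3g, Trac, Trbc1, Trbc2 or Trdc, were left out as an alternative. This removed 4774 of the 5490 small intestine cells and 6755 of the 7549 colon cells. Cd3e itself was seen in only 429 and 1384 of them, so the filter took out many cells without it. In the small part that was left, Ccl5 (0.240), Xcl1 (0.357) and Cxcl10 (0.246) were past 2-fold as well. Ccl1 was then at 0.171, Ccl3 at 24.0-fold and Ccl4 at 5.40-fold.

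The RNA of each chemokine sat in few cells. The richest 1% of small intestine cells held 76.2% of the Ccl1 UMIs, 76.6% of those of Ccl3, 70.5% of Ccl4 and 70.0% of Ccl5, but 19.1% of those of Cx3cl1. In the colon the same share of cells held 100% of the Ccl3 UMIs and 34.8% of those of Ccl1. A small intestine cell with Ccl5 had a mean of 10.4 UMIs of it and a colon cell 10.1, and the most in a single cell were 223 and 315. Cx3cl1 was spread thinly, with a mean of 1.27 UMIs per small intestine cell that had any and 1.57 per colon cell. After every cell was thinned to 1673 UMIs, 3.65% of small intestine cells and 14.7% of colon cells had Ccl1 (4.68% and 19.1% unthinned). For Ccl3 these shares were 2.38% and 0.693% (3.26% and 0.967% unthinned), and for Ccl4 5.16% and 2.23% (6.89% and 3.01%). For Ccl1 the gap was one of how many cells had a UMI, since the mean per such cell was 5.18 UMIs for the small intestine and 4.36 for the colon.

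**Figure D1:**
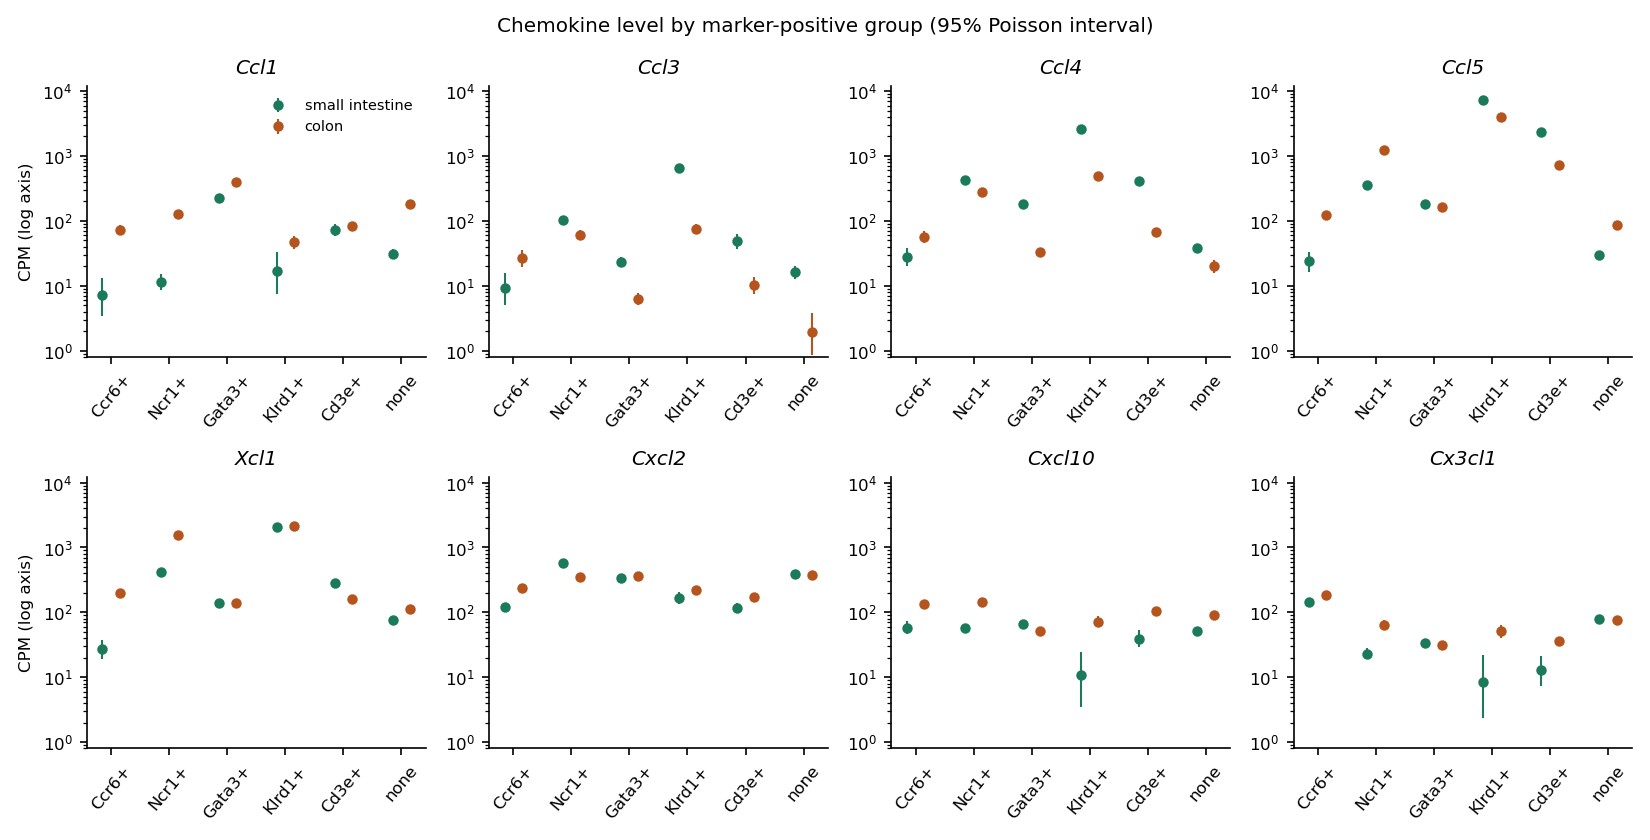
Level in CPM (log axis) of each chemokine in the 5 overlapping marker-positive groups and in cells with none of the markers, with small intestine and colon side by side and bars for the 95% Poisson interval. Ccl3, Ccl4, Ccl5 and Xcl1 peak in Klrd1+ cells, Ccl1 in Gata3+ cells and Cx3cl1 in Ccr6+ cells of both libraries, while Cxcl2 and Cxcl10 have no peak that both libraries share.

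Ccl3, Ccl4, Ccl5 and Xcl1 reached their highest levels in Klrd1+ cells in both tissues, though much of their RNA was in other cells. Klrd1+ cells of the small intestine held 45.6% of the Ccl3 UMIs of that tissue, 42.1% of Ccl4, 77.8% of Ccl5 and 33.3% of Xcl1. The overlapping Ncr1+ group there held 72.8%, 68.8%, 37.5% and 69.0%. For the colon these shares were 55.1%, 64.4%, 72.3% and 56.2% in Klrd1+ cells, and 63.4%, 51.7%, 32.9% and 58.2% in Ncr1+ cells. In the small intestine Ccl3 was at 660.0 CPM in Klrd1+ cells and 25.3 CPM in Klrd1- cells (26.1-fold), Ccl4 at 2604 and 115 CPM (22.6-fold), Ccl5 at 7407 and 67.8 CPM (109-fold) and Xcl1 at 2040 and 131 CPM (15.5-fold). In the colon Ccl3 was at 75.8 CPM in Klrd1+ cells and 4.67 CPM in Klrd1- cells (16.2-fold), Ccl4 at 493 and 20.6 CPM (23.9-fold), Ccl5 at 3927 and 114 CPM (34.5-fold) and Xcl1 at 2131 and 125 CPM (16.99-fold). Those 4 of the 8 chemokines were the ones higher by 2-fold or more in Klrd1+ cells of each tissue, against 5.9% of genes for the small intestine and 4.81% for the colon. The other 4 were lower by 2-fold or more in small intestine Klrd1+ cells (8.55% of genes), and Ccl1 alone in those of the colon (6.73%). Without cells with T cell UMIs, Cxcl2 (3.98-fold, 2.71 to 5.65) turned to higher in small intestine Klrd1+ cells. Ccl1 was then at 1.99-fold, but its interval of 0.049 to 11.8 gave no direction. Ncr1+ cells came next for Ccl3, Ccl4 and Xcl1 in both libraries. In the small intestine Ccl4 at 421 CPM in Ncr1+ cells and 413 CPM in Cd3e+ cells did not differ beyond their intervals, and in the colon Ccl3 at 75.8 CPM in Klrd1+ cells and 61.4 CPM in Ncr1+ cells did not either, with 31 of the 137 Ccl3 UMIs of the Ncr1+ cells in 1 cell.

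The 2 tissues parted within these Klrd1+ cells. Ccl3 was 8.71-fold higher in small intestine cells (7.03 to 10.9) and Ccl4 5.28-fold higher (4.82 to 5.79), while Ccl5 was 1.89-fold higher (1.81 to 1.97) and Xcl1 did not differ beyond counting error (0.957, 0.890 to 1.03). Among Klrd1+ cells, 2 of the 8 chemokines were thus higher by 2-fold or more in small intestine cells, against 7.17% of genes, and 3 were at least 2-fold lower, against 4.88%. Those 3 were Ccl1, Cxcl10 and Cx3cl1, of which Klrd1+ cells of the small intestine held 8, 5 and 4 UMIs, and with free RNA subtracted Ccl1 was no longer past 2-fold (0.587). The share of thinned cells moved the same way: 23.4% of Klrd1+ cells of the small intestine and 7.52% of those of the colon had Ccl3 (29.1% and 9.13% unthinned, median depth 2440 and 2535 UMIs). Gata3+ cells, some of which also had Klrd1, are given for comparison. Their thinned shares were 1.49% and 0.437% (2.31% and 0.616% unthinned, median depth 2901 and 2766 UMIs). In Ccr6+ cells these shares were 0.803% and 0.857%. For Ccl4 they were 38.3% of Klrd1+ cells of the small intestine and 16.6% of those of the colon (44.2% and 18.7% unthinned), against 4.16% and 1.46% of Gata3+ cells. Ccl5 was seen in 62.9% of thinned Klrd1+ cells of the small intestine and 58.6% of those of the colon, and Xcl1 in 57.5% and 63.1%. RNA free in the droplets, at 44.0 CPM for Ccl3 and 194.8 CPM for Ccl4 in the small intestine, would add 2.36 and 10.4 CPM to a cell at its estimated share of 5.36%. The T cell markers were also higher in the small intestine group, at a summed 3515 CPM over 9 genes against 2078 CPM for the colon, and their part in these ratios was not tested. Without cells with any T cell UMI the ratios within Klrd1+ cells were 13.2 for Ccl3, from 7 UMIs, 3.08 for Ccl4, 0.107 for Ccl5 and 0.282 for Xcl1, so the direction of Ccl5 turned.

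**Figure D2:**
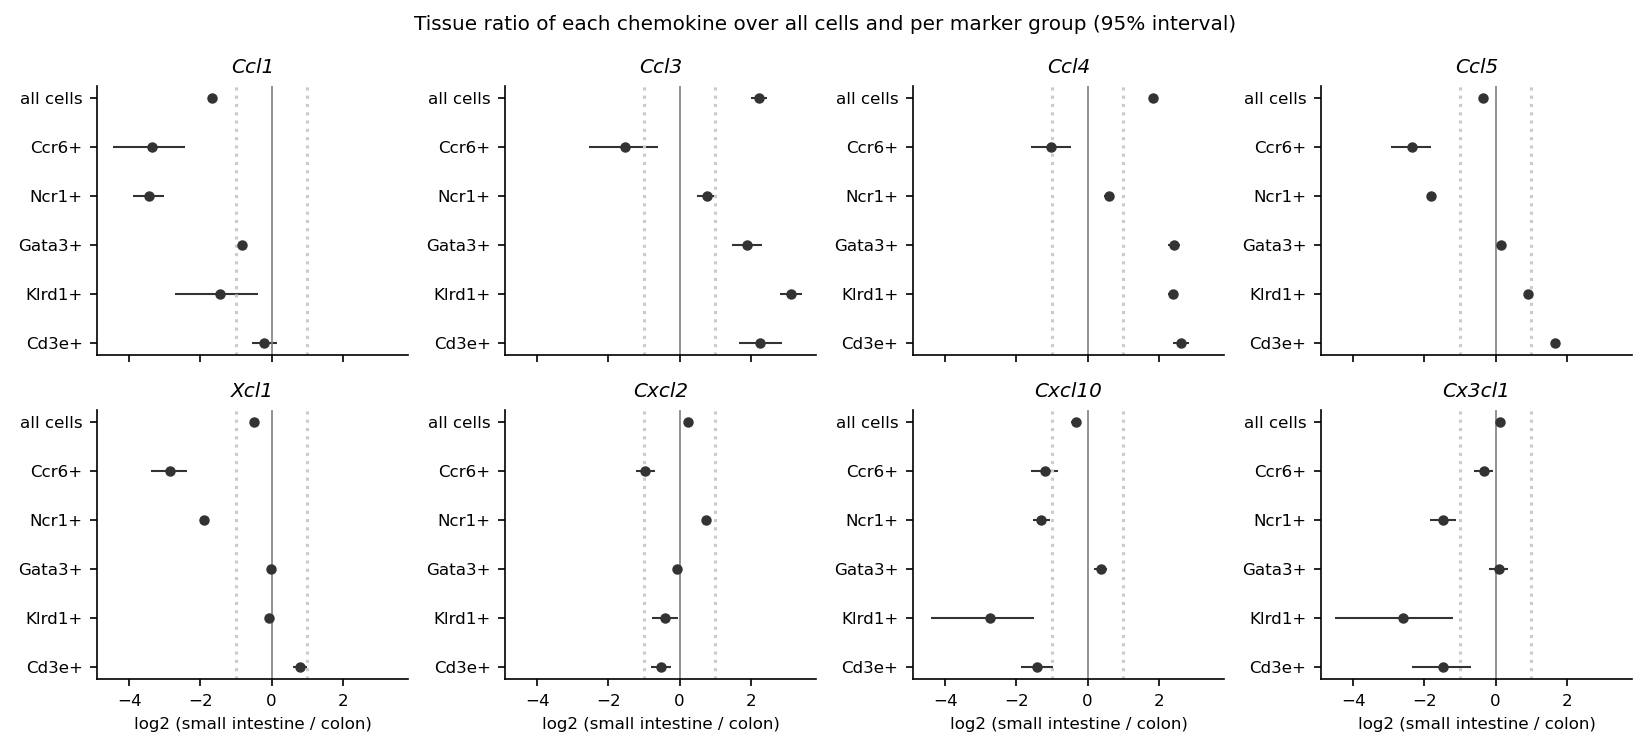
log2 ratio of the small intestine over the colon for each chemokine, over all cells and within each marker-positive group, with 95% intervals and dotted lines at 2-fold. Ccl3 and Ccl4 lie to the right in Ncr1+, Gata3+, Klrd1+ and Cd3e+ cells and to the left in Ccr6+ cells, and Ccl1 lies to the left in every group, with an interval that holds 0 in Cd3e+ cells.

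Dividing the Klrd1+ cells by Cd3e and Ncr1 gave different orders for Ccl5 and Ccl3. Ccl5 peaked in cells with both Klrd1 and Cd3e, at 16795 CPM in 50 small intestine cells and 6841 CPM in 94 colon cells (2.45-fold). This was 4.94-fold above the Klrd1+ Cd3e- cells of the small intestine and 2.17-fold above those of the colon. Cells with Cd3e but no Klrd1 had only 337 CPM of Ccl5 when from the small intestine and 208 CPM when from the colon. Ccl3 went the other way, with 306 CPM in Klrd1+ Cd3e+ cells of the small intestine and 6.03 CPM, from 2 UMIs, in those of the colon. Ccl4 was at 2952 and 308 CPM in the same cells, with 224 of its 415 UMIs in 1 small intestine cell and 79 of 102 in 1 colon cell. In cells with Klrd1 and Ncr1 but no Cd3e, Ccl3 was at 920.5 CPM in small intestine cells and 113 CPM in colon cells (8.16-fold), and Ccl4 at 2551 and 561 CPM (4.55-fold). Ccl5 was at 3726 CPM there in small intestine cells and 3009.7 CPM in colon cells. Xcl1 was also highest there, at 2652 CPM in small intestine cells and 3009.7 CPM in colon cells.

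Small intestine cells with Ncr1 but neither Klrd1 nor Cd3e had less Ccl5 and Xcl1 than their colon counterparts. Ccl5 was at 83.9 CPM in 1489 small intestine cells and 397 CPM in 423 colon cells (ratio 0.211), and Xcl1 at 303 and 944 CPM (0.321). In the same cells Ccl3 and Ccl4 were still higher in the small intestine group, 57.3 CPM of Ccl3 against 19.6 CPM in colon cells (2.93-fold) and 293 CPM of Ccl4 against 88.5 CPM (3.31-fold). Within the same cells the order of the tissues thus differed between chemokines. Where Klrd1 was the only marker seen, Ccl5 was at 2339 CPM in 31 small intestine cells and 5039 CPM in 120 colon cells, the opposite order to that of the whole Klrd1+ group.

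**Figure D3:**
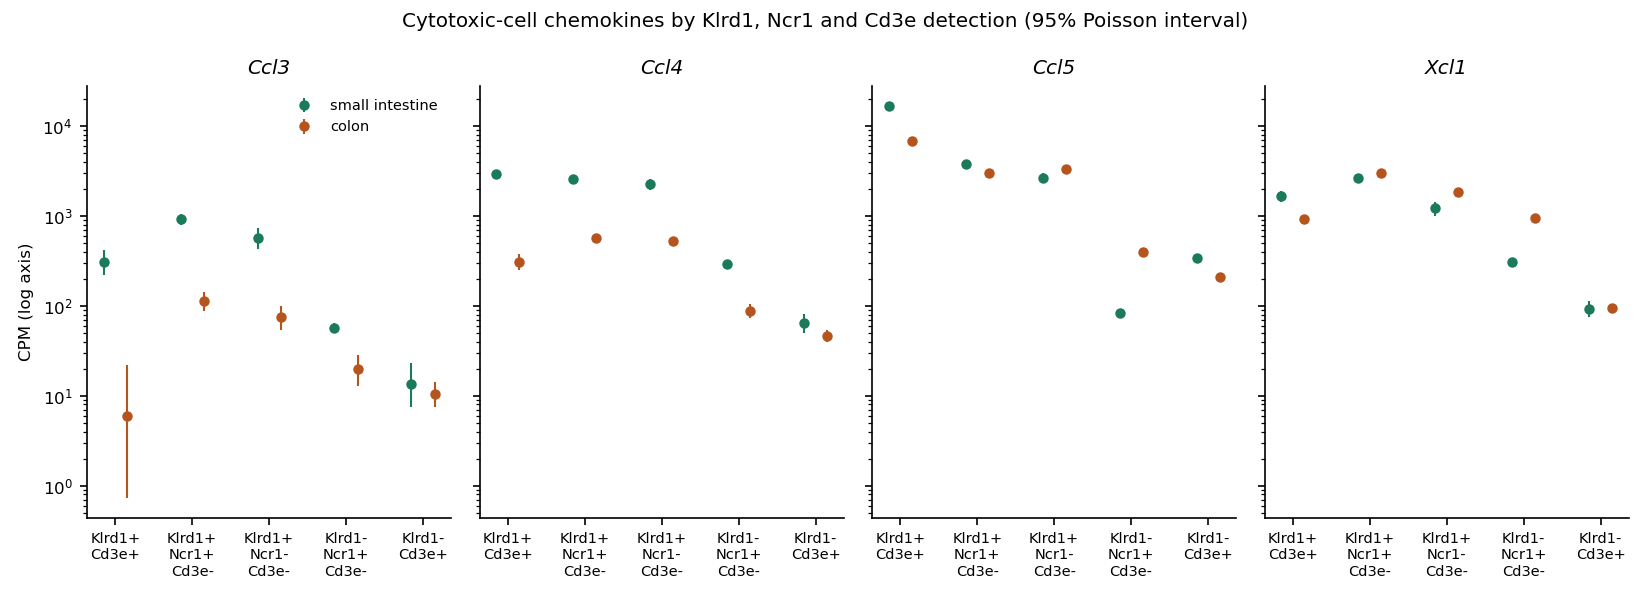
CPM (log axis) of Ccl3, Ccl4, Ccl5 and Xcl1 in cells divided by Klrd1, Ncr1 and Cd3e, with small intestine and colon side by side and 95% Poisson bars. Ccl5 is highest in Klrd1+ Cd3e+ cells of both tissues, and Ccl3 is above the colon in 4 of the 5 small intestine groups, with overlapping intervals in Klrd1- Cd3e+ cells.

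In the whole Ncr1+ group the gap in Ccl3 and Ccl4 was smaller. Ccl3 was at 104 CPM in Ncr1+ cells of the small intestine and 61.4 CPM in those of the colon (1.70-fold, or 2.08-fold without the cell with the most Ccl3 of each), and Ccl4 at 421 and 279 CPM (1.51-fold). Xcl1 was at 419 CPM in Ncr1+ cells of the small intestine and 1553 CPM in those of the colon (ratio 0.270), and Ccl5 at 354 and 1256 CPM (0.282). Ccl1 (0.0917), Cxcl10 (0.407) and Cx3cl1 (0.362) were lower in the small intestine too, so 5 of the 8 chemokines were at least 2-fold lower there, against 4.13% of genes, and 0 were at least 2-fold higher, against 9.26%. Within each tissue Ncr1+ cells had more Xcl1 than Ncr1- cells, 4.85-fold for the small intestine and 12.6-fold for the colon. Against Ncr1- cells, 3 of the 8 chemokines were higher by 2-fold or more in small intestine cells (1.9% of genes) and 2 lower (5.68%), and 5 were higher in the colon (4.38%) and 1, Ccl1, lower (6.39%). Of those 5, Cxcl10 was at 2.14-fold, and at 1.95-fold without the richest cell of each side. Of the Ncr1+ cells, 31.3% of those of the small intestine and 59.7% of those of the colon carried another marker, and 2 of 7 heat-shock genes were at least 2-fold higher in the colon group. With Ncr1 as the only marker the ratios were 0.304 for Xcl1, 0.177 for Ccl5 and 0.373 for Cx3cl1, while Ccl1 (0.548) and Cxcl10 (0.502) were no longer past 2-fold and Ccl3 (2.30) and Ccl4 (2.14) were.

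Cd3e+ cells, the group with T cell transcripts, had more of 3 chemokines in the small intestine. Ccl4 was at 413 CPM there and 66.6 CPM in colon cells (6.20-fold), Ccl3 at 49.0 and 10.2 CPM (4.80-fold) and Ccl5 at 2324 and 730 CPM (3.18-fold), against 5.12% of genes higher by 2-fold or more in small intestine cells. Single cells held much of this: 224 of the 481 Ccl4 UMIs of the small intestine and 79 of the 281 of the colon, and 31 of the 43 Ccl3 UMIs of the colon. Without the richest cell of each side the ratio was 4.62 for Ccl4 and 12.7 for Ccl3, and with thinned cells it was 11.9 for Ccl4 and 81.7 for Ccl3, from 27 UMIs. Cxcl10 and Cx3cl1 were at least 2-fold lower, against 4.27% of genes. Most of these UMIs came from the Cd3e+ cells that also had Klrd1: 415 of 481 for Ccl4 and 2361 of 2706 for Ccl5 in the small intestine. With Cd3e as the only marker, Ccl5 was at 377 CPM in small intestine cells and 257 CPM in colon cells. Klrd1 was seen in 50 of the 429 Cd3e+ cells of the small intestine and in 94 of the 1384 of the colon.

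Over 12 groups (cells with exactly 1 of the markers, or none, in each tissue), the 3 of 4014 genes whose log2 level was most like that of Xcl1 were Klrc2 and Klre1, both NK receptor genes, and Pglyrp1, a peptidoglycan-binding protein (Pearson r 0.966, 0.942 and 0.942). For Ccl5 they included Il21r, the interleukin-21 receptor (0.938), and Ms4a4b (0.917). For Ccl3 they were Mndal (0.917), Ccl4 (0.916) and Glul, glutamine synthetase (0.903), and for Ccl4 they were Efhd2 (0.946), Ythdf3 (0.932) and Ccl3 (0.916). These r values describe groups that share 2 libraries and their depth.

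Cells with Ccl3, the rarest of the 4, often held the others. The reverse shares were lower, which follows from the smaller number of cells with Ccl3. Of 50 thinned colon cells with Ccl3, 86.0% also had Xcl1 (interval 73.3 to 94.2), 84.0% Ccl5 and 68.0% Ccl4, against 8.81%, 7.81% and 1.77% of colon cells without Ccl3. Of 123 thinned small intestine cells with Ccl3, 45.5% had Xcl1 (36.5 to 54.8), 35.0% Ccl5 and 43.9% Ccl4, against 9.30%, 5.54% and 4.22% of cells without it. Of cells with Xcl1, 10.6% of the small intestine and 6.38% of the colon had Ccl3, and 16.9% and 13.4% had Ccl4, against 1.44% and 0.107% with Ccl3 and 3.83% and 1.09% with Ccl4 among cells without Xcl1. Of cells with Ccl5, 13.3% and 6.99% had Ccl3. Ccl5 and Xcl1 were seen together in 41.2% of small intestine cells with Ccl5 and 44.9% of colon cells with Ccl5. Xcl1 was seen in 3.17% of small intestine cells that had Ccl1 against 10.4% of those that did not. In the colon it was seen in 3.50% against 10.4%. Ccl4 and Ccl5 did not part this way in the small intestine, at 5.82% and 5.29% with Ccl1 against 5.13% and 6.28% without. Small intestine cells with Cx3cl1 also had less Xcl1, 3.27% against 10.7%.

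**Figure D4:**
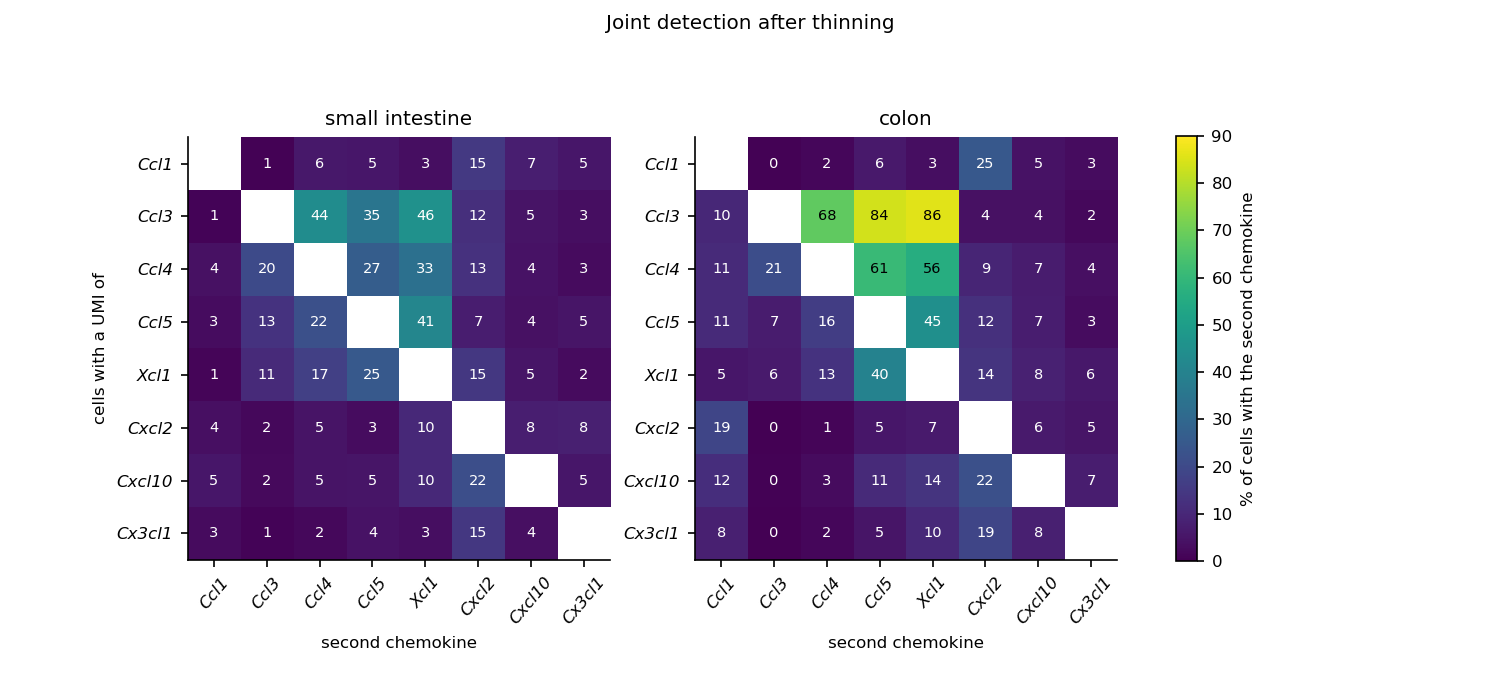
Percent of cells with a UMI of the chemokine on the left that also had a UMI of the chemokine below, after thinning every cell to 1673 UMIs. The highest shares of both tissues lie among Ccl3, Ccl4, Ccl5 and Xcl1 and reach 86.0% in the colon.

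Genes of cytotoxic lymphocytes were higher in cells with the same 4 chemokines. In cells with Ccl3, 9 of 10 cytotoxic genes were at least 2-fold higher than in cells without it for the small intestine (4.11% of genes) and 10 of 10 for the colon (9.42%), where only 73 cells had Ccl3 and Gzma and Tnfsf10 rested on 1 and 5 UMIs in them. The counts were 10 and 9 of 10 for Xcl1 (2.14% and 3.16% of genes), and 6 and 8 of 10 for both Ccl4 (3.25% and 4.7%) and Ccl5 (2.89% and 2.63%). Gzmb, a granzyme that cleaves caspases, was at 479 CPM in small intestine cells with Ccl3 and 73.3 CPM in those without (6.54-fold), and at 1027 and 48.4 CPM in colon cells (21.2-fold). Prf1, the pore-forming perforin, was 4.37-fold higher with Ccl3 in small intestine cells and 17.5-fold in the colon, and Ifng, the cytokine interferon-γ, 5.66-fold and 8.02-fold. Gzma was at 741 CPM in small intestine cells with Ccl5 and 3.83 CPM in those without, but the colon library had only 21 UMIs of it. Of 23 activation genes, Dusp2, a phosphatase of MAP kinases, was at least 2.48-fold higher with each of the 4 chemokines in both tissues, while Csf2 and Tnf did not reach 2-fold with any of them.

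**Figure D5:**
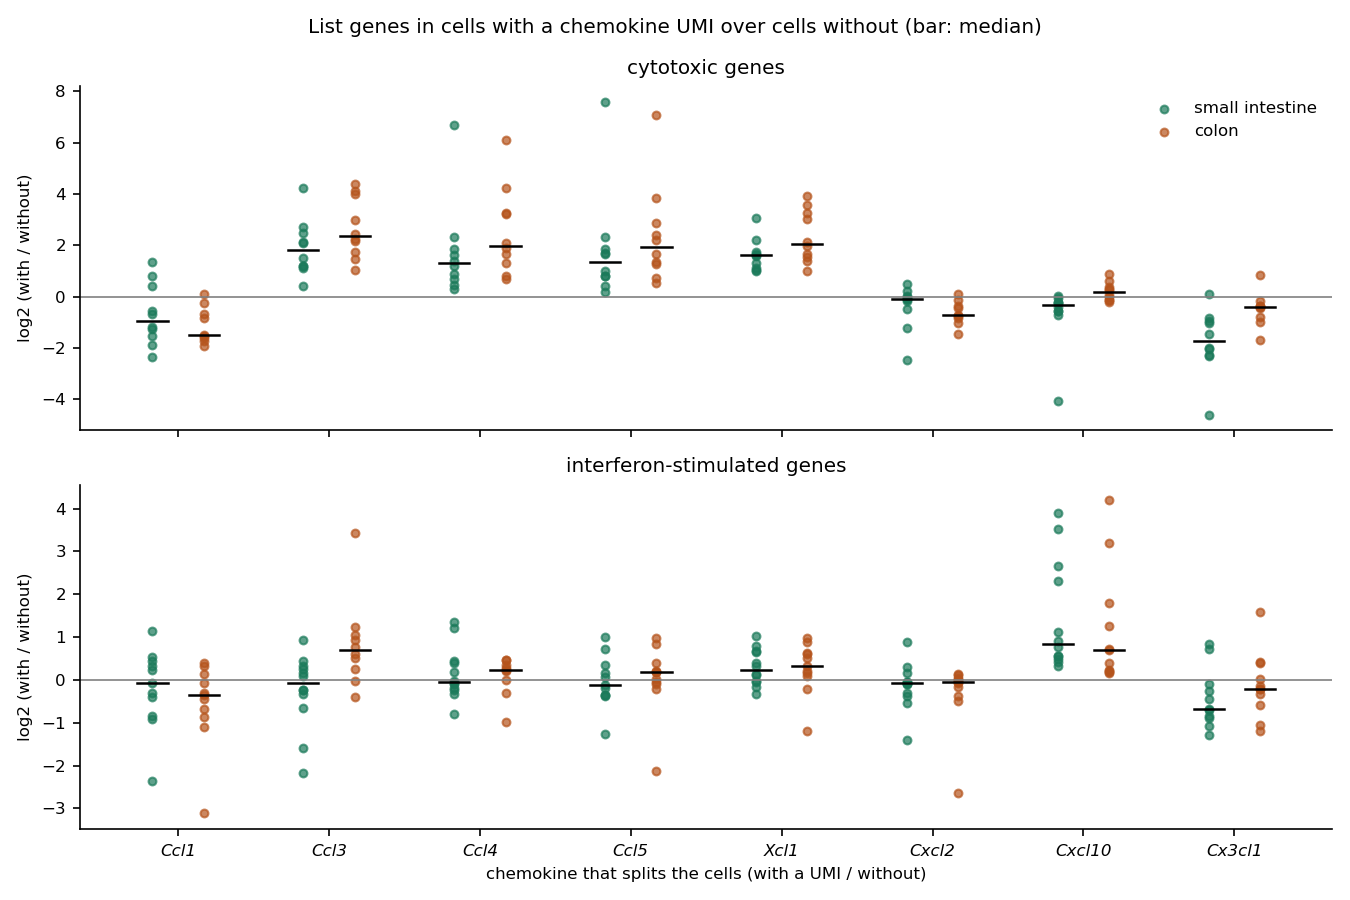
log2 ratio of each measured gene of the cytotoxic and interferon-stimulated lists in cells with a UMI of a chemokine over cells without, by tissue, with a bar at the median. The medians of the cytotoxic genes lie above 2-fold for Ccl3, Ccl4, Ccl5 and Xcl1 in both tissues, and the median of the interferon-stimulated genes is 1.80-fold in small intestine cells with Cxcl10 and 1.63-fold in colon cells with it.

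Gata3+ cells shared in the higher Ccl3 and Ccl4 of the small intestine, and 2 of the 8 chemokines were at least 2-fold higher there (7.42% of genes) and 0 lower (4.4%). Ccl4 was at 179.6 CPM in Gata3+ cells of the small intestine and 33.4 CPM in those of the colon (5.38-fold), and Ccl3 at 23.1 and 6.22 CPM (3.71-fold). Gata3+ cells without Ncr1, Klrd1 or Cd3e had far less Ccl4, 37.7 CPM in small intestine cells and 4.06 CPM in colon cells, than Gata3+ cells with at least 1 of those markers, which had 531 and 152 CPM. Of the 136 Ccl4 UMIs of the first kind in the small intestine, 77 were in 1 cell. Ccl5 and Xcl1 in the first kind were at 34.6 and 34.1 CPM in small intestine cells and 56.8 and 37.3 CPM in colon cells. Of the Ccl4 UMIs of Gata3+ cells, 774 of 910 for the small intestine and 407 of 451 for the colon were in cells with Ncr1, Klrd1 or Cd3e. A single cell held 224 of the 910, and another held 79 of the 451.

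Ccl1 was the chemokine of Gata3+ cells. It was at 225 CPM in Gata3+ cells and 19.1 CPM in Gata3- cells of the small intestine (11.8-fold, 10.1 to 13.8), and at 401 and 99.2 CPM in colon cells (4.04-fold, 3.76 to 4.34). Ccl1 was the only one of the 8 chemokines at least 2-fold higher in Gata3+ cells in either tissue, where 2.75% of genes for the small intestine and 2.9% for the colon were. Lower by 2-fold or more were Ccl3 in small intestine cells (1 of 8, against 3.85% of genes) and 6 of the 8 in the colon (6.4%), all but Ccl1 and Cxcl2, of which Ccl3 (1.67-fold, from 2 UMIs) and Ccl4 (2.01-fold) turned to higher without cells with T cell UMIs. After thinning, 8.44% of Gata3+ cells of the small intestine and 20.3% of those of the colon had it (11.2% and 26.8% unthinned). In Ccr6+ cells, which did not differ beyond their intervals from Ncr1+ cells in the small intestine and were not the lowest group in the colon, the thinned shares were 1.004% and 8.29% at median depths of 2366 and 3443 UMIs. Free RNA in droplets without a cell held Ccl1 at 71.5 CPM for the small intestine and 291 CPM for the colon, which at its estimated shares of 5.36% and 8.25% gives 3.83 and 24.0 CPM per cell. The Ccl1 gene is annotated over a long span, chr11:82176657-82305690 on mm10, and 3′ counts do not tell its transcripts apart.

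Ccl1 was lower in the small intestine in 4 of the 5 marker groups, by different amounts. Within Gata3+ cells the ratio was 0.561 (0.526 to 0.598), or 0.316 without cells with T cell UMIs, and in Gata3+ cells with none of Ncr1, Klrd1 and Cd3e the levels were 287.5 and 448 CPM, for the small intestine and the colon, a smaller gap than over all cells. The Gata3+ group made up 29.9% of small intestine cells and 55.9% of colon cells. In Ncr1+ cells, some of which also had Gata3, Ccl1 was at 11.6 CPM for the small intestine and 126 CPM for the colon, and at 30.8 and 184 CPM in cells with none of the 5 markers. With Ncr1 as the only marker, those values were 9.24 and 16.8 CPM, against a free RNA level of 3.83 and 24.0 CPM per cell. In Cd3e+ cells the tissues did not differ beyond counting error, at 73.0 CPM in small intestine cells and 83.9 CPM in colon cells, but 33 of the 85 small intestine UMIs were in 1 cell, and without the richest cell of each side the ratio was 0.612 (0.447 to 0.823). With Cd3e as the only marker the levels were 9.75 CPM in small intestine cells and 26.6 CPM in colon cells.

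Genes of ILC2 moved with Ccl1. Over the same 12 groups the 3 genes with the most similar log2 level to Ccl1 were Il13, the type 2 cytokine (Pearson r 0.970), Il9r, the interleukin-9 receptor (0.945), and Ptgir, the prostacyclin receptor (0.940). Summed ILC2 markers were at 3747 CPM in small intestine cells with Ccl1 and 908 CPM in those without, and at 3220 and 1740 CPM in colon cells. Of 23 activation genes, Csf2, which encodes GM-CSF, was at 974 CPM in small intestine cells with Ccl1 and 452 CPM in those without (2.15-fold), and at 482 and 232 CPM in colon cells (2.08-fold). It was the only 1 of the 23 at least 2-fold higher with Ccl1 in each tissue, against 3.37% of genes in small intestine cells and 0.766% in the colon. For the small intestine that count is near the share of all genes. In each tissue 1 of the 23 was also at least 2-fold lower, against 13.6% and 5.41% of genes. Most cytotoxic genes were lower in cells with Ccl1, with 5 of 10 lower by 2-fold or more in small intestine cells (13.6% of genes) and 6 of 10 in the colon (5.41%). Gzma went the other way in the small intestine, at 152 CPM in cells with Ccl1 and 59.3 CPM in those without (2.57-fold).

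Cx3cl1 reached its highest level in Ccr6+ cells, though most of its RNA was in other cells. It was at 146 CPM in Ccr6+ cells and 42.2 CPM in Ccr6- cells of the small intestine (3.45-fold, 2.93 to 4.06), and at 183 and 36.3 CPM in colon cells (5.04-fold, 4.39 to 5.77). Ccr6+ cells held 26.0% of the Cx3cl1 UMIs of the small intestine and 28.4% of those of the colon. Cells with none of the 5 markers held 46.7% and 29.2%, and Gata3+ cells 21.5% and 40.1%. The thinned shares of Ccr6+ cells were 20.7% for the small intestine and 23.7% for the colon (29.2% and 45.4% unthinned), against 5.02% and 3.13% of Gata3+ cells. Cells with none of the 5 markers came next, at 78.1 CPM in small intestine cells and 75.2 CPM in colon cells. In the small intestine Klrd1+ cells at 8.52 CPM, from 4 UMIs, and Cd3e+ cells at 12.9 CPM were lowest and did not differ beyond their intervals, and in the colon Cd3e+ and Gata3+ cells, at 35.6 and 31.2 CPM, did not differ beyond their intervals. The genes with the most similar levels over the 12 groups were H2-Ab1 (r 0.969), Cd74 (0.968) and H2-Eb1 (0.956), which present antigen on MHC class II. Summed ILC3 markers were at 9703 CPM in small intestine cells with Cx3cl1 and 5595 CPM in those without, and at 8705 and 2161 CPM in colon cells. Of the 10 cytotoxic genes, 7 were lower by 2-fold or more in cells with Cx3cl1 for the small intestine (4.86% of genes) and 1 for the colon (5.31%).

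In Ccr6+ cells most of the 8 chemokines were higher in the colon. Against the colon, 6 of the 8 were at least 2-fold lower in Ccr6+ cells of the small intestine (3.4% of genes) and 0 were higher (7.47%). Xcl1 was at 27.3 CPM in Ccr6+ cells of the small intestine and 197 CPM in those of the colon (ratio 0.138), Ccl5 at 23.7 and 121 CPM (0.195), Cxcl10 at 58.2 and 133 CPM (0.436) and Ccl1 at 7.18 and 73.5 CPM (0.0978). Cxcl2, at 121 and 237 CPM (0.512), was not past 2-fold. Ccl3, at 9.34 and 26.9 CPM, and Ccl4, at 28.0 and 56.9 CPM, rested on few cells: 31 of the 44 Ccl3 UMIs of colon Ccr6+ cells were in 1 cell, and without the richest cell of each side the Ccl3 ratio was 0.991. With Ccr6 as the only marker both turned round, to 7 UMIs of Ccl3 in 377 small intestine cells against 0 in 178 colon cells and to 10 UMIs of Ccl4 against 2. In those same cells Ccl1 was at 9.90 CPM for the small intestine, from 9 UMIs, and 22.8 CPM for the colon, from 13 UMIs. Free RNA would give 3.83 and 24.0 CPM of Ccl1 per cell. Colon Ccr6+ cells were the deepest group, with a median of 3443 UMIs against 2366 in the small intestine, and 50.1% of them carried another marker. Of 7 heat-shock genes, 3 were at least 2-fold higher in colon Ccr6+ cells, and without heat-shock cells the ratios were 0.814 for Ccl4 and 0.744 for Cxcl10. Without cells with T cell UMIs they were 0.613 for Ccl5 and 1.17 for Cxcl2.

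Within the small intestine Ccr6+ cells had low levels of most other chemokines. There 6 of the 8 were at least 2-fold lower than in Ccr6- cells (6.39% of genes) and only Cx3cl1 was higher by that much (5.83%). Colon Ccr6+ cells had 2 higher (8.16%) and 2 lower (6.55%), and the higher ones were Cx3cl1 and Ccl3, which was at 1.07-fold without the richest cell of each side. Cd3e+ cells differed from Cd3e- cells in Ccl5, at 2324 and 127 CPM in small intestine cells (18.3-fold) and at 730 and 301 CPM in colon cells (2.43-fold). In all, 2 of the 8 chemokines were at least 2-fold higher in Cd3e+ cells of the small intestine (3.93% of genes) and 2 lower (9.42%), and 1 was higher in those of the colon (3.79%) and 2 lower (5.71%). With Cd3e as the only marker Ccl5 in the colon (0.855) and Ccl4 in the small intestine (0.288, against 2.37 as first grouped) turned to lower, and without the richest cell of each side Ccl4 was at 1.32-fold.

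The levels of Cxcl2 lay closer together across the marker groups than those of the other 7 chemokines. In the small intestine it was highest in Ncr1+ cells, at 580.0 CPM in Ncr1+ cells and 298 CPM in Ncr1- cells (1.95-fold, 1.85 to 2.05). In the colon Gata3+ cells at 357 CPM and Ncr1+ cells at 348 CPM did not differ beyond their intervals. Cells with none of the 5 markers had 391 CPM for the small intestine and 374 CPM for the colon. Cd3e+ cells had the least, 119 CPM for the small intestine, where Ccr6+ cells at 121 CPM did not differ from them beyond their intervals, and 169.5 CPM for the colon. After thinning 14.2% of small intestine cells and 19.3% of colon cells had a UMI of it (17.7% and 24.8% unthinned), but the mean per such cell was 5.99 UMIs for the small intestine and 3.92 for the colon, so share and level pointed opposite ways. Cxcl2 was also the most abundant of the 8 in free RNA, at 517 CPM in droplets without a cell of the small intestine and 454 CPM in those of the colon, which amounts to 27.7 and 37.5 CPM per cell. Under 1% of genes were at least 2-fold higher in cells with Cxcl2 (0.609% for the small intestine and 0.624% for the colon), and 0 of the 23 activation genes, which include the NF-kB target Nfkbia, were among them in either tissue. Its most similar genes over the 12 groups were Naa38 (r 0.915), Igsf5 (0.881) and Ndufa11 (0.866).

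Cxcl10 also had no marker group that was highest in both libraries. The richest 1% of cells held 47.2% of its UMIs for the small intestine and 50.3% for the colon. Of the 218 Cxcl10 UMIs of colon Ccr6+ cells, 57 were in 1 cell. Small intestine levels were 67.3 CPM in Gata3+ cells, 58.2 CPM in both Ncr1+ and Ccr6+ cells and 39.5 CPM in Cd3e+ cells, with overlapping intervals between neighbours, and 10.6 CPM in Klrd1+ cells. Colon levels were 143 CPM in Ncr1+ cells and 133 CPM in Ccr6+ cells, which did not differ beyond their intervals, then 105 CPM in Cd3e+, 71.95 CPM in Klrd1+ and 52.2 CPM in Gata3+ cells. Cells with 50 or more antibody UMIs (plasma cells, a limit chosen after the data were seen) numbered 12 for the small intestine and 10 for the colon, and had 17.2 and 116 CPM of Cxcl10, from 3 and 15 UMIs. Antibody and B cell markers summed to 30040 CPM in small intestine cells with Cxcl10 and 5207 CPM in those without, and to 14855 and 1019 CPM in colon cells. In the small intestine this sum was also higher in cells with Ccl1, 16726 CPM against 6588 CPM without. With Ccl3 it was lower, 276 CPM against 7440 CPM without. The plasma cells were deep, with a median of 15992 UMIs for the small intestine and 13632 for the colon. The part of cells with these markers in the Cxcl10 levels was not tested. The levels without the plasma cells were 59.3 CPM in small intestine cells and 74.1 CPM in colon cells.

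Interferon-stimulated genes were higher in cells with Cxcl10. At least 2-fold higher were 5 of 12 measured genes for the small intestine (1.55% of genes) and 4 of 11 for the colon (1.78%). Ifit1, an antiviral RNA-binding protein, was at 36.6 CPM in small intestine cells with Cxcl10 and 5.76 CPM in those without (6.34-fold, 4.29 to 9.28), and at 48.4 and 2.65 CPM in colon cells (18.3-fold, 13.1 to 25.8). Cxcl9, another CXCR3 ligand, was 11.5-fold higher in small intestine cells and 9.22-fold higher in the colon, and Rsad2, the antiviral viperin, 4.97-fold and 3.46-fold. Isg15, at 211 and 112 CPM in small intestine cells and 209.0 and 128 CPM in colon cells, did not reach 2-fold. The list as a whole differed between tissues in a way that Cxcl10 did not. Over all cells 6 of 12 interferon-stimulated genes were higher by 2-fold or more in small intestine cells (8.92% of genes) and 0 lower (5.42%). Their median log2 ratio was 1.01, while Cxcl10 had a ratio of 0.791. The genes most like Cxcl10 over the 12 groups, Txndc17 (r 0.933), Kpna1 (0.902) and Ppp1cc (0.897), were not on that list.

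Of 30 other chemokine ligands, 21 were in the table and 10 had 20 UMIs or more summed over both. Higher by 2-fold or more in the small intestine were 3 of these 10, against 8.92% of genes. They were Ccl20, a ligand of CCR6 (6.66-fold, from 36 and 8 UMIs), Cxcl3, a neutrophil chemokine like Cxcl2 (2.35-fold), and Cxcl9 (2.10-fold). Ccl21a and Cxcl12, which guide lymphocytes into lymphoid tissue, were the 2 at least 2-fold lower (5.42% of genes). Ccl21a had 0 UMIs in small intestine cells and 637 in the colon, of which 613 were in 8 cells, and a ratio against the floor of 3 UMIs puts it at least 143-fold lower. Reads of its near-identical copies may not be told apart. Apart from these, Cxcl1 was the most abundant, at 30.1 CPM in small intestine cells and 37.3 CPM in colon cells, so no ligand outside the 8 came near the levels of Cxcl2 or Ccl5.

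Receptors of the 8 chemokines were seen in the same libraries. With at least 20 UMIs, 5 of 11 were measured, 1 higher by 2-fold or more in small intestine cells (8.92% of genes) and 3 at least 2-fold lower (5.42%). Ccr8, the receptor of CCL1, was at 8.02 CPM in small intestine cells and 35.3 CPM in colon cells (ratio 0.227), and within Gata3+ cells at 19.3 and 48.8 CPM, so it was higher in the tissue and the cells with more Ccl1. Cxcr3, the receptor of CXCL10, was at 76.3 CPM in small intestine cells and 33.3 CPM in colon cells (2.29-fold). Ccr1 was at 2.92 and 6.18 CPM. Xcr1 and Cx3cr1 had 6 and 4 UMIs in small intestine cells and 3 and 12 in the colon, too few for a ratio.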

How the data were processed

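The authors deposited raw UMI counts per gene and barcode, 1 matrix per tissue (31053 genes, 737280 barcodes), and a table of the same counts for the cells they listed (17238 genes), by a rule not given in the sources used here; 0 table values differed from the matrices. Cell Ranger 3.0.2 and the mm10 build were used, per the submitters' processing notes. The listed cells held 15080081 UMIs for the small intestine and 22332691 for the colon, and doublets were not removed beyond the authors' list.

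The UMIs of a gene were summed over the cells of a group and given per 1000000 UMIs of the group, as CPM (Python 3.11.15, numpy 2.4.6, scipy 1.17.1, pandas 2.3.3, matplotlib 3.10.9). Levels have exact Poisson, ratios exact conditional binomial and shares Clopper-Pearson 95% intervals. The ratio was tested on simulated counts. Alternatives were another cell call, scaling, thinning, subtraction of free RNA, stricter marker groups, and leaving out doublets (Scrublet in scanpy 1.11.5), shared barcodes, heat-shock cells or cells with T cell UMIs. Ratios needed 20 UMIs over both sides, and a count of 0 was set to a floor of 3, with no call where that bound gave no direction. Shares were taken after thinning to 1673 UMIs, the depth of the 5th percentile, which left out 315 small intestine cells and 337 colon cells. The free RNA profile came from barcodes of 10 to 50 UMIs, and its share was estimated from 3 antibody genes in cells with at most 10 such UMIs. Besides the 8 members and genes of the lists with at least 20 UMIs, named genes were the 3 of highest Pearson r with a member, on log2(CPM + 1) over 12 groups, among genes with at least 100 UMIs and 50 CPM in some group. The members and lists were chosen with earlier results of these data known. Gene positions are from GENCODE vM21. Results for 1 gene are not reported here.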

Additional observations from a re-analysis of the deposited data

Results flagged for a closer look

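The ratio of the small intestine over the colon pointed in opposite directions in different marker groups for 3 chemokines. Ccl3 was 8.71-fold in Klrd1+ cells and 0.347 in Ccr6+ cells. Ccl4 was 6.20-fold in Cd3e+ cells and 0.492 in Ccr6+ cells, with 224 of the 481 UMIs of small intestine Cd3e+ cells in 1 cell. Ccl5 was 3.18-fold in Cd3e+ cells and 0.195 in Ccr6+ cells, or 0.613 there without cells with T cell UMIs. With 1 library per tissue, the differences between groups were not tested, and the Ccr6+ values of Ccl3 and Ccl4 turned round under other choices of cells.

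Barcodes that pass a cell call on the matrices but that the authors did not list also held chemokine UMIs, above the limit that a count of 0 allows. The 8 genes summed to 846 CPM in 208 such barcodes of the small intestine and to 908 CPM in 208 of the colon, against 1310.3 and 1444 CPM in the listed cells. Their median mitochondrial share was 5.27% for the small intestine and 5.47% for the colon, against 2.49% and 2.69% in the listed cells.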

How the results depend on the processing

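No paired analysis was possible because each tissue has 1 library, which leaves no second pair. Over all cells, 10 alternatives for each of the 8 tissue ratios gave 80 values, of which 55 stayed within the counting interval of the reported value and 25 moved outside it; 0 turned a ratio past 2-fold round. With median-ratio scaling the ratios of the small intestine over the colon were 0.272 for Ccl1, 3.11 for Ccl4, 0.674 for Ccl5, 0.622 for Xcl1, 1.02 for Cxcl2, 0.687 for Cxcl10 and 0.955 for Cx3cl1. With thinned cells they were 0.266 for Ccl1, 3.18 for Ccl4, 1.12 for Cxcl2 and 1.44 for Cx3cl1. Leaving out cells with any T cell UMI removed most cells, 4774 of 5490 in the small intestine and 6755 of 7549 in the colon. It gave 0.171 for Ccl1, 24.0 for Ccl3, 5.40 for Ccl4, 0.240 for Ccl5 and 0.357 for Xcl1. Cxcl2 was then at 1.05, Cxcl10 at 0.246 and Cx3cl1 at 0.899. Without heat-shock cells Ccl4 was at 3.92 and Ccl5 at 0.731, without shared barcodes Ccl5 was at 0.748, without the top-scoring Scrublet doublets (241 and 456 cells, since its own threshold marked 0 and 1) Xcl1 was at 0.756 and Cxcl2 at 1.25, and with free RNA subtracted Cxcl2 was at 1.23.

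Within marker groups the ratio of the small intestine over the colon turned round for Ccl3 in Ccr6+ cells with thinned cells (2.04, from 5 UMIs), without cells with T cell UMIs (1.43, against the floor), with that marker only (1.47, against the floor) and with at least 2 UMIs of the marker (2.31, against the floor), and for Ccl4 in Ccr6+ cells with that marker only (3.14) and with at least 2 UMIs (15.3). Without cells with T cell UMIs it turned round in Klrd1+ cells for Cx3cl1 (1.06, from 6 UMIs). Only ratios first past 2-fold beyond counting error are listed in this paragraph. Ratios not past 2-fold could change direction too, such as Ccl5 in Klrd1+ cells and Cxcl2 in Ccr6+ cells without cells with T cell UMIs. The ratio of marker-positive over marker-negative cells turned round without cells with T cell UMIs for Ccl1 (1.99, with an interval of 0.049 to 11.8 that gave no direction) and Cxcl2 (3.98) of Klrd1 in the small intestine and for Ccl3 (1.67, from 2 UMIs) and Ccl4 (2.01) of Gata3 in the colon. With that marker only it turned round for Ccl4 of Cd3e in the small intestine (0.288), Ccl3 of Ccr6 in the colon (0.632, against the floor) and Ccl5 of Cd3e in the colon (0.855). Ccl3 of Ccr6 in the colon also turned round with thinned cells (0.317) and with at least 2 UMIs (0.827, against the floor). The cause was not tested. The 4 counts of chemokine-by-group ratios past 2-fold stayed within 1.5 times under all alternatives run. Leaving out plasma cells and leaving out the richest cell of each side were chosen after seeing the data.

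With 1 pool of 8 mice per tissue, variation between mice and between libraries was not measured, and a marker missed at this depth puts a cell in the wrong group.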
